A study of Mus musculus with 36 samples.

Results

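The genes described here encode acute-phase plasma proteins: the serum amyloid A genes Saa1, Saa2, Saa3 and Saa4, lipocalin-2 (Lcn2), haptoglobin (Hp), hemopexin (Hpx), the orosomucoids Orm1 and Orm2, and the lipopolysaccharide-binding protein Lbp. They were chosen by name, with earlier results of these data known. All 10 were found among the 24421 gene symbols of the files, and all 10 passed the filter on low counts in the test of each comparison. Bulk RNA was sequenced from hepatic stellate cells (HSC, the vitamin A storing pericytes of the liver sinusoid), liver sinusoidal endothelial cells (LSEC, its fenestrated lining) and hepatocytes of C57BL/6 mice, with 4 libraries per cell type and condition. The conditions were WT, which the series' design text calls PBS mice, 12 h after diphtheria toxin, and 36 h after it, the toxin serving to remove the liver's own macrophages, the Kupffer cells. The labels give no genotype and no toxin receptor gene, so an effect of genotype cannot be told apart from one of the toxin. No group received toxin while keeping its Kupffer cells. Nothing in the labels ties a library to a single animal, so the p-values measure the spread between these libraries, which may be technical.

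Acute-phase proteins are plasma proteins whose synthesis in the liver changes within hours of injury or infection. Cytokines of the interleukin-6 and interleukin-1 families drive them through the transcription factors STAT3, NF-kB and C/EBP, and hepatocytes are their main source. Serum amyloid A 1 and 2 are inducible apolipoproteins of high-density lipoprotein, mouse Saa3 is an inducible form made largely outside hepatocytes, and Saa4 is the constitutive form. Lipocalin-2 withholds iron from bacteria by binding their siderophores, haptoglobin captures free hemoglobin, hemopexin captures heme, orosomucoids carry small ligands in plasma, and Lbp hands lipopolysaccharide to the receptor CD14.

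Each library held 25404719 to 31734631 counts in genes, and levels are given as CPM, the count scaled to a library total of 1e+06. Stellate, sinusoidal endothelial and hepatocyte marker lists were each highest in the cell type they mark. The 15 stellate markers summed to at least 52054 CPM in HSC and at most 986 CPM elsewhere. The 15 endothelial markers summed to at least 30933 CPM in LSEC and at most 1758 CPM elsewhere. The 20 hepatocyte markers summed to at least 94394 CPM in hepatocytes and at most 704 CPM elsewhere. Hepatocyte libraries fell on either side of 100 CPM of the nuclear RNA Malat1: WT replicates 1 and 2, 12 h replicate 1 and 36 h replicates 1 and 2 were above it.

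The 4 Saa genes lie within 42316 bases of mouse chromosome 7. Gene bounds are those of RefSeq (GRCm38), and strands and transcripts are those of GENCODE. Saa3 is at 46711998 to 46719615, Saa4 at 46727992 to 46732603 and Saa1 at 46740497 to 46743181, all on the minus strand, and Saa2 is at 46751833 to 46754313 on the plus strand. Saa1 and Saa2 point away from each other, with 8651 bases between them. Lcn2 is on chromosome 2 at 32384637 to 32387739, Hp on chromosome 8 at 109575128 to 109579172 and Hpx on chromosome 7 at 105591611 to 105600116, all on the minus strand. Orm1 and Orm2 are plus-strand neighbours on chromosome 4, at 63344556 to 63348163 and 63362449 to 63365877, and Lbp is on the plus strand of chromosome 2 at 158306493 to 158332852. Of the 50-base windows of the Saa1 transcript, 13.2% also occur in Saa2, and 20.4% of those of Orm1 also occur in Orm2. How such reads were counted is not given in the sources used here, so single values of Saa1 against Saa2 and of Orm1 against Orm2 are uncertain.

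Promoter sequences were at hand from RefSeq (GRCm38.p6) for 7 of the 10 genes. The 250 bases before the RefSeq start are shown on the strand of the gene for the inducible Saa genes and Lcn2, the genes with the largest changes in HSC, and capitals mark matches to the C/EBP motif TTGCNNAA on either strand. For Saa1 and Saa3 the start used for the promoter lies inside the RefSeq gene bounds given above. The stretches are chr7:46742981-46743230 (minus strand) for Saa1, chr7:46751583-46751832 (plus strand) for Saa2, chr7:46715677-46715926 (minus strand) for Saa3 and chr2:32387740-32387989 (minus strand) for Lcn2.
Saa1: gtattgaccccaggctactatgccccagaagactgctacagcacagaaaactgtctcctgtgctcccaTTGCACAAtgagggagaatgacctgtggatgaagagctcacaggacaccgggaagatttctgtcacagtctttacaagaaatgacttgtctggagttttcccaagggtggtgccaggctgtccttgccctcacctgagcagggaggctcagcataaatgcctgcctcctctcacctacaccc
Saa2: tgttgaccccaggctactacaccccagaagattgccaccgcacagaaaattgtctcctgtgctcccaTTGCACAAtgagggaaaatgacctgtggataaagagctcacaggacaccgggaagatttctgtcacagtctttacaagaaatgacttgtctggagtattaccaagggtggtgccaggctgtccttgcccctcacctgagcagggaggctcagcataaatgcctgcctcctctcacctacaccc
Saa3: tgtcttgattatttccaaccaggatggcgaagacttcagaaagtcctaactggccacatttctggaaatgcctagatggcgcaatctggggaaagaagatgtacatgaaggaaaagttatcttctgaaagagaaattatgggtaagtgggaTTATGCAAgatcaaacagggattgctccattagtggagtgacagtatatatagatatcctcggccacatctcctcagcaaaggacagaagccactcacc
Lcn2: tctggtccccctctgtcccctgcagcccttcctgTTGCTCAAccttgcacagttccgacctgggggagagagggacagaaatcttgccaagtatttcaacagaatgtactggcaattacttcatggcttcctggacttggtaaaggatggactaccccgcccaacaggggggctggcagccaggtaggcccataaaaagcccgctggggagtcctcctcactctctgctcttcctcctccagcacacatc

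The Saa1 and Saa2 stretches were identical at 238 of 250 aligned bases (95.2%), with the C/EBP match at nearly the same place, positions -182 and -183 from the start. The matches of Saa3 and Lcn2 begin at -99 and -216. In the window from 250 bases before to 50 after the start, with both strands searched, TTGCNNAA occurred in 7 of 7 promoters of the set, against 10.8% of 32841 mouse promoters. The STAT motif TTCNNNGAA, found in 8.30% of all promoters, and an NF-kB consensus, found in 8.46%, had no match in the 7, and TATAAA, found in 13.6%, matched in Orm2 at -33. A match describes these letters and not binding.

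In WT livers hepatocytes held the highest mean of every gene of the set, and Lbp was nearly as high in LSEC. Per kilobase of transcript, which allows genes to be compared, Hpx led in WT hepatocytes with a mean of 4559 CPM per kilobase, followed by Hp at 1752, Orm1 at 932, Saa4 at 68.7 and Lbp at 43.1. Below these came Saa1 at 29.1, Orm2 at 20.6, Saa2 at 12.6, Lcn2 at 9.25 and Saa3 at 5.21 CPM per kilobase. In WT LSEC the order was another one: Lbp led at 40.8 CPM per kilobase, and the next gene, Hpx, was at 7.102. In WT HSC Hpx led at 23.8 and Hp followed at 11.2 CPM per kilobase.

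**Figure D1:**
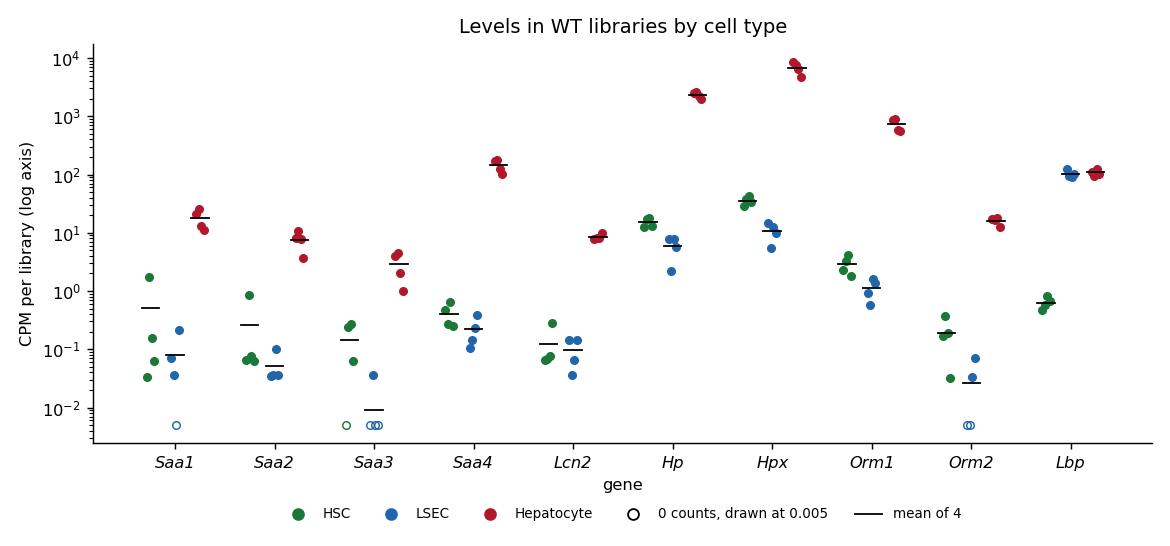
CPM of each gene (log axis) in the 4 WT libraries of HSC, LSEC and hepatocytes, 1 point per library, with a bar at the mean of 4 and open points for libraries with 0 counts. Hepatocytes are highest for 9 of the 10 genes, while Lbp lies at 89.2 to 126 CPM in LSEC and 95.5 to 126 CPM in hepatocytes.

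The difference from hepatocytes was called for all 10 genes in both other cell types. The test was the edgeR quasi-likelihood test with Benjamini-Hochberg adjustment over all genes, and called genes had an adjusted p under 0.05. All 10 were lower in HSC than in hepatocytes, where 35.9% of all genes were called lower, and all 10 were lower in LSEC, where 36.3% were. The median log2 difference of the set was -7.51 in HSC and -9.004 in LSEC, and that of all genes was 0.18 in both. The WT ranges of Lbp overlapped, at 89.2 to 126 CPM in LSEC and 95.5 to 126 CPM in hepatocytes. Hp had 12.7, 16.97, 17.8 and 12.9 CPM in HSC and 7.74, 2.22, 7.78 and 5.69 CPM in LSEC, against 2523, 2649, 2250.1 and 2006 CPM in hepatocytes. Scaling by library totals alone shifted the median of all genes by 0.68 in HSC and 0.83 in LSEC against hepatocytes, and by -0.13 in HSC against LSEC. It ended 1 of these calls: Lbp in LSEC against hepatocytes had a log2 difference of -0.92 ± 0.15 (SE, adjusted p = 8.24e-05) in the test and -0.08 (adjusted p = 0.599) with library totals.

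Lbp also set LSEC apart from HSC. WT HSC libraries had 0.464, 0.577, 0.8097 and 0.662 CPM of Lbp, against 126, 93.3, 89.2 and 103 CPM in WT LSEC libraries. The groups were far apart, with a log2 difference of -7.21 ± 0.22, adjusted p = 1.65e-11. Of the other genes, 5 were higher in WT HSC than in WT LSEC, where 29.7% of all genes were called higher and 27.1% lower. Hp differed by 1.52 ± 0.30, adjusted p = 0.000686, Hpx by 1.899 ± 0.29, adjusted p = 7.07e-05 and Orm1 by 1.51 ± 0.31, adjusted p = 0.000859 on the log2 scale. Orm2 rested on 22 counts in HSC and 3 in LSEC, a ratio of 7.12 with a 95% interval of 2.14 to 37.2 for counting error only. Saa3 rested on 16 counts in HSC and 1 in LSEC, a ratio of 15.5 (2.41 to 652), and its call was lost without HSC replicate 2 or 3 or LSEC replicate 1, 3 or 4 (adjusted p 0.0662 to 0.0795). Saa2 did not pass (2.38, adjusted p = 0.0564) but did with replicate number as a block (2.15, adjusted p = 0.0491). The hepatocyte markers were also higher in WT HSC, with a sum of 367 to 555 CPM, against 71.8 to 273 CPM in WT LSEC, and their part in these differences was not tested.

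At 12 h after toxin, 9 of the 10 genes rose in HSC, most of all Saa3 and Lcn2. In this comparison 17.0% of 12676 genes were called higher. The median log2 change of the set was 2.83, and that of all genes was 0.01. In bulk RNA a change in the share of cells that express a gene cannot be told apart from a change in RNA per cell. How many of all genes have toxin libraries all above WT was not counted, so such separation is given as description only.

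Saa3, the serum amyloid made largely outside hepatocytes, changed most. HSC libraries at 12 h had 11.7, 15.2, 557 and 85.4 CPM, against 0, 0.238, 0.2699 and 0.06302 CPM in WT (0, 7, 7 and 2 counts). Every 12 h library lay above every WT library, and replicate 3 stood far above the others. The log2 fold was 10.16 ± 1.46 (SE, adjusted p = 0.000276), and 8.07 without 12 h replicate 3. At 36 h the libraries had 67.5, 64.6, 44.5 and 32.02 CPM, closer together and again all above WT.

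Lcn2, the siderophore binder, followed Saa3. HSC libraries had 15.3, 10.4, 235 and 49.1 CPM at 12 h, against 0.0663, 0.0679, 0.0771 and 0.284 CPM in WT (2, 2, 2 and 9 counts). The groups did not overlap, and replicates 3 and 4 were again the highest at 12 h. The log2 fold was 9.16 ± 1.16, adjusted p = 0.000136, or 7.58 without 12 h replicate 3 and 9.97 without WT replicate 4. At 36 h Lcn2 had 28.7, 22.3, 30.97 and 16.9 CPM, all above WT.

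Saa1 and Saa2, the inducible forms of the liver, were divided within the 12 h group. Saa2 had 0.286, 0.726, 84.99 and 43.9 CPM at 12 h, against 0.0663, 0.848, 0.0771 and 0.06302 CPM in WT. Replicates 3 and 4 lay far above WT, and replicates 1 and 2 below the highest WT library. Its log2 fold was 6.87 ± 1.51, adjusted p = 0.00386, or 8.79 without WT replicate 2 and 5.82 without 12 h replicate 3. Saa1 had the same division, with 0.394, 1.002, 57.8 and 33.02 CPM at 12 h, against 0.0331, 1.76, 0.154 and 0.06302 CPM in WT. Its log2 fold was 5.46 ± 1.34, adjusted p = 0.00761, or 8.08 without WT replicate 2 and 4.51 without 12 h replicate 3. At 36 h all 4 libraries were above WT, Saa1 at 16.4 to 34.1 CPM and Saa2 at 9.28 to 19.9 CPM. The constitutive Saa4 also rose at 12 h, with 0.609, 1.83, 4.86 and 2.79 CPM, against 0.464, 0.271, 0.655 and 0.252 CPM in WT (2.59 ± 0.60, adjusted p = 0.00537), and 3 of the 4 libraries were above WT.

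**Figure D2:**
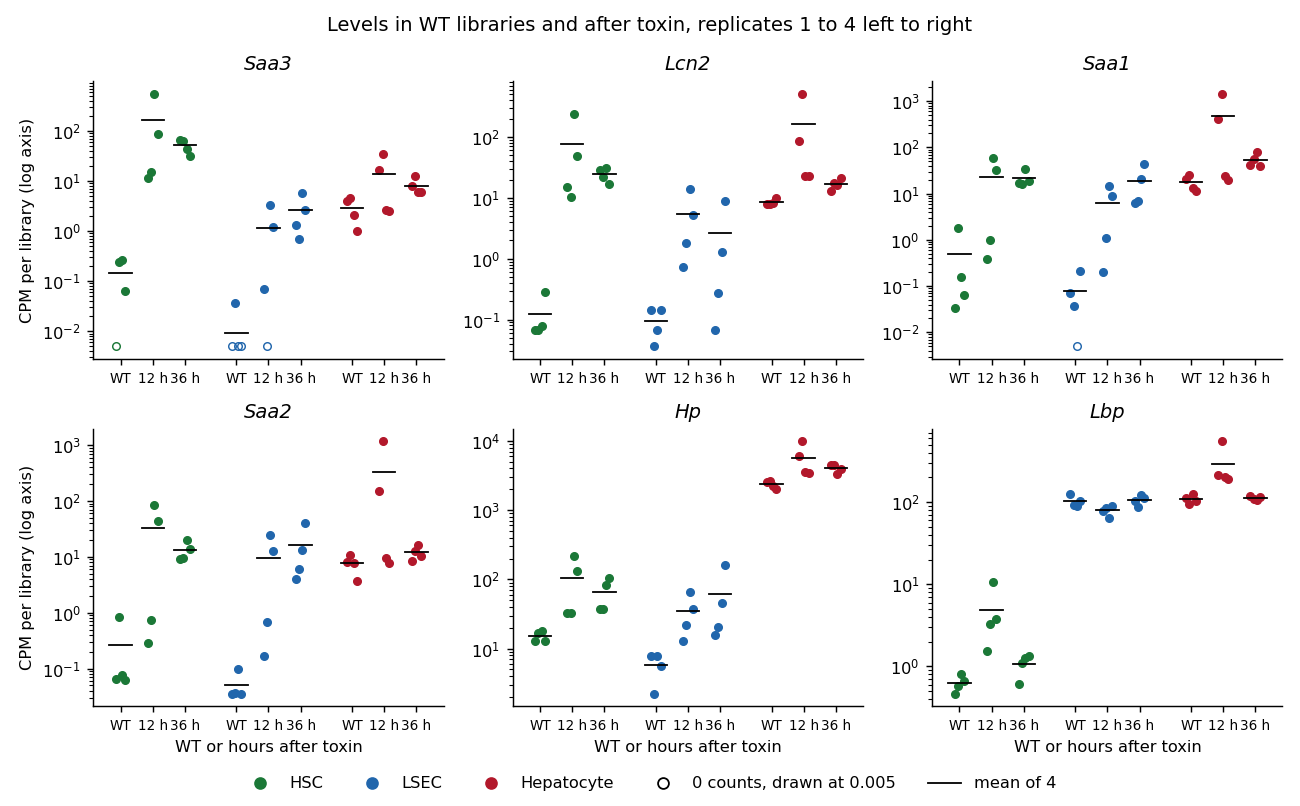
CPM (log axis) of 6 genes in WT and at 12 h and 36 h after toxin in HSC, LSEC and hepatocytes, 1 point per library with replicates 1 to 4 from left to right, and a bar at the mean of 4. Saa3 spans 11.7 to 557 CPM in HSC at 12 h and at most 5.78 CPM in any LSEC library, while Lbp stays between 64.1 and 126 CPM in LSEC.

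The scavengers of hemoglobin and heme rose by less. Hp had 32.2, 32.2, 220.4 and 132 CPM in HSC at 12 h, against 12.7, 16.97, 17.8 and 12.9 CPM in WT. The groups did not overlap (2.76 ± 0.56, adjusted p = 0.00245; 2.13 without 12 h replicate 3). Hpx had 63.9, 52.5, 273 and 159 CPM at 12 h, against 28.6, 37.4, 43.3 and 33.6 CPM in WT, also without overlap (1.91 ± 0.43, adjusted p = 0.00441). Of the orosomucoids, Orm1 rose (1.61 ± 0.55, adjusted p = 0.0393), with 2 of 4 libraries above the highest WT library. That call was lost without WT replicate 1, 2 or 4 or 12 h replicate 3 or 4 (adjusted p 0.0638 to 0.183, log2 fold 0.94 without 12 h replicate 3) and in a fit of these 2 groups alone (adjusted p = 0.0618). Orm2 did not pass (2.57 ± 0.98, adjusted p = 0.0596), with 2, 3, 89 and 31 counts at 12 h, against 5, 11, 5 and 1 counts in WT, though DESeq2 called it (adjusted p = 0.049).

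Lbp in HSC started low and stayed low. It had 1.54, 3.32, 10.7 and 3.83 CPM at 12 h, against 0.464, 0.577, 0.8097 and 0.662 CPM in WT, without overlap (2.91 ± 0.50, adjusted p = 0.00092; 2.21 without 12 h replicate 3). The highest HSC library was still below the lowest LSEC library of any condition. At 36 h Lbp had 0.605, 1.098, 1.26 and 1.34 CPM and was lower than at 12 h by a log2 difference of -2.14 ± 0.48, adjusted p = 0.00519 (-1.43 without 12 h replicate 3). Saa4 was lower too (-2.04 ± 0.58, adjusted p = 0.0188), so that 2 of 10 genes were called, both lower, where 27.9% of all genes were called in either direction. The call on Saa4 was lost without 12 h replicate 3 or 36 h replicate 1 or 2 (adjusted p 0.0576 to 0.0742).

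At 36 h against WT, 2 of the 10 genes were called higher in HSC, where 0.134% of all genes were. They were Saa3 (8.53 ± 1.43, adjusted p = 0.0335) and Lcn2 (7.55 ± 1.15, adjusted p = 0.0246; 8.37 without WT replicate 4). Both calls were lost without any 1 WT library or without 36 h replicate 1 or 3, and that on Saa3 also without 36 h replicate 4 (adjusted p 0.0575 to 0.171). Saa1 (5.39, adjusted p = 0.217), Saa2 (5.59, adjusted p = 0.261), Hp (2.105, adjusted p = 0.251), Hpx (1.66, adjusted p = 0.245), Orm1 (1.804, adjusted p = 0.372) and Orm2 (3.69, adjusted p = 0.259) did not pass. All 4 libraries of each lay above every WT library, a separation that was not counted over all genes. DESeq2 called 4 of the 10 (124 genes in all) and a fit of these 2 groups alone called 7.

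In LSEC at 12 h, 7 of the 10 genes rose, where 9.74% of 12286 genes were called higher. The median log2 change of the set was 3.24, and that of all genes was -0.02. Saa2 had 0.171, 0.686, 24.9 and 12.5 CPM at 12 h, against 0.0353, 0.0364, 0.0997 and 0.0356 CPM in WT. The groups did not overlap, and replicates 3 and 4 were the highest, as in HSC (7.41 ± 1.64, adjusted p = 0.00734; 6.31 without 12 h replicate 3). Saa1 had 0.205, 1.11, 14.7 and 8.801 CPM at 12 h, against 0.0707, 0.0364, 0 and 0.213 CPM in WT, with 3 of 4 libraries above WT (6.24 ± 1.37, adjusted p = 0.00706; 5.36 without 12 h replicate 3 and 7.33 without WT replicate 4).

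Lcn2 had 0.718, 1.79, 14.2 and 5.24 CPM in LSEC at 12 h, against 0.141, 0.0364, 0.0665 and 0.142 CPM in WT, without overlap (5.79 ± 1.41, adjusted p = 0.0127; 4.70 without 12 h replicate 3). Hp had 12.96, 22.3, 64.8 and 37.5 CPM at 12 h, against 7.74, 2.22, 7.78 and 5.69 CPM in WT (2.57 ± 0.70, adjusted p = 0.0212). Hpx had 22.9, 30.5, 67.6 and 34.7 CPM at 12 h, against 14.5, 5.54, 12.6 and 9.99 CPM in WT (1.89 ± 0.56, adjusted p = 0.0334). Both scavengers were thus above WT in all 4 libraries. Saa3 and Orm2 had too few WT counts for a fitted fold. Saa3 had 2, 0, 99 and 33 counts at 12 h, against 0, 1, 0 and 0 in WT, a ratio of 137 with a 95% interval for counting error only of 24.1 to 5446 (adjusted p = 0.0176). Orm2 had 4, 1, 32 and 14 counts at 12 h, against 0, 0, 1 and 2 in WT, a ratio of 17.4 (5.62 to 86.98; adjusted p = 0.0377).

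Several LSEC calls at 12 h hung on single libraries. Without 12 h replicate 3 those on Saa3, Hp, Hpx and Orm2 were lost (adjusted p 0.0616 to 0.133). Those on Saa3, Hpx and Orm2 were lost without any 1 WT library, that on Hp without WT replicate 2 or 4, and those on Hpx and Orm2 also without 12 h replicate 4 (adjusted p 0.0507 to 0.0924). Saa4 (2.06, adjusted p = 0.0616) and Orm1 (1.67, adjusted p = 0.105) did not pass.

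Lbp took another course in LSEC, where it had 77.8, 85.5, 64.1 and 90.6 CPM at 12 h, against 126, 93.3, 89.2 and 103 CPM in WT. Of the 12 h libraries 3 lay below every WT library, and no change was called (-0.36 ± 0.14, adjusted p = 0.0865). At 36 h it had 104, 87.7, 121 and 111 CPM, inside the WT range in 3 of 4 libraries (0.01 ± 0.14, adjusted p = 0.992).

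At 36 h in LSEC edgeR called none of the 10 genes and none of 12286 in all (0%). At an unadjusted p under 0.05 there were 9 of the 10, against 1288 of 12286 genes in all. DESeq2 called 8 of the 10 and 109 genes in all. A fit of these 2 groups alone, in which Saa4 and Lcn2 did not pass the filter on low counts, called Saa1 and Saa2. Saa1 had 6.16, 7.01, 20.4 and 43.1 CPM at 36 h, against 0.0707, 0.0364, 0 and 0.213 CPM in WT (7.78 ± 1.36, adjusted p = 0.182). Saa2 had 4.04, 6.04, 13.2 and 41.1 CPM at 36 h, against 0.0353, 0.0364, 0.0997 and 0.0356 CPM in WT (8.08 ± 1.63, adjusted p = 0.201). Hp had 15.8, 20.4, 46.2 and 159.9 CPM at 36 h, against 7.74, 2.22, 7.78 and 5.69 CPM in WT (3.31 ± 0.71, adjusted p = 0.237). None of these groups overlapped, a separation that was not counted over all genes, and replicate 4 was the highest at 36 h in each. Replicate 4 also held the most hepatocyte marker RNA of the LSEC libraries, a sum of 704 CPM, against 71.8 to 273 CPM in WT, and the most stellate marker RNA, a sum of 986 CPM, against 329 to 465 CPM in WT. The stellate sum of all 4 libraries at 36 h was 415 to 986 CPM. Of the 13 stellate markers tested in LSEC at 36 h, edgeR called 0, 12 had an unadjusted p under 0.05, DESeq2 called 1 higher, and the median log2 fold over WT was 2.44. Of 19 hepatocyte markers edgeR called 0, 4 had an unadjusted p under 0.05 and DESeq2 called 0. The part of hepatocyte or stellate RNA in the LSEC values at 36 h was not tested. Saa3 had 39, 20, 169 and 67 counts at 36 h, a ratio to WT of 297 (52.9 to 11772). Against 12 h, edgeR called none of the 10 at 36 h, where 21.3% of all genes were called. At an unadjusted p under 0.05 there were 2 of the 10, against 4276 of 12286 genes in all. DESeq2 called Orm2 higher, and 3231 genes in all in either direction.

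**Figure D3:**
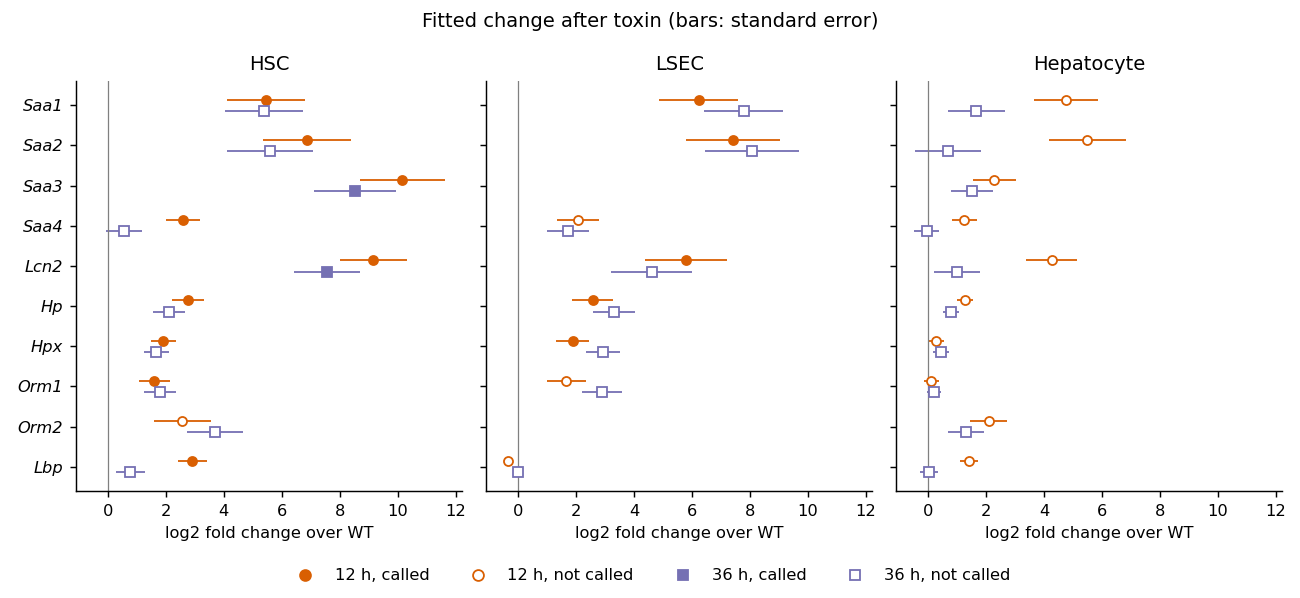
Fitted log2 fold change over WT with its standard error for each gene at 12 h (circles) and 36 h (squares) in HSC, LSEC and hepatocytes; filled symbols have an adjusted p under 0.05. Saa3 and Orm2 are left out for LSEC, where WT held 1 and 3 counts, and the largest fold drawn is 10.16 for Saa3 in HSC at 12 h; no hepatocyte symbol is filled.

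In hepatocytes, the main source of these proteins, 12 h levels were far above WT in some libraries only, and no gene was called. Saa1 had 404, 1451, 24.3 and 19.2 CPM at 12 h, against 21.05, 25.4, 13.3 and 11.2 CPM in WT (4.75 ± 1.11, adjusted p = 0.395). Saa2 had 148, 1176, 9.48 and 7.74 CPM at 12 h, against 8.11, 10.9, 7.79 and 3.73 CPM in WT (5.49 ± 1.32, adjusted p = 0.42). For both genes replicates 1 and 2 were far above WT, while replicates 3 and 4 were inside the WT range. The reverse held in HSC and LSEC, where replicates 3 and 4 were high, and hepatocyte numbers are not shown to pair with those of the other cell types.

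For Lcn2, Hp and Lbp all 12 h hepatocyte libraries lay above all WT libraries, a separation that was not counted over all genes. Lcn2 had 86.8, 515, 22.6 and 22.9 CPM at 12 h, against 7.78, 7.98, 8.08 and 10.01 CPM in WT (4.26 ± 0.88, adjusted p = 0.377). Hp had 6031, 9906, 3556 and 3451 CPM at 12 h, against 2523, 2649, 2250.1 and 2006 CPM in WT (1.27 ± 0.28, adjusted p = 0.395). Lbp had 217, 552, 203 and 192 CPM at 12 h, against 111, 95.5, 126 and 103 CPM in WT (1.41 ± 0.31, adjusted p = 0.395). Replicate 2 was the highest in each. Saa3 (2.29, adjusted p = 0.882), Saa4 (1.24, adjusted p = 0.934) and Orm2 (2.08, adjusted p = 0.735) had 2 of 4 libraries above WT, and the log2 fold was 0.27 for Hpx and 0.11 for Orm1.

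EdgeR called 0% of 11326 genes in hepatocytes at 12 h, so that the lack of a call does not set these genes apart. At an unadjusted p under 0.05 there were 8 of the 10, against 453 of 11326 genes in all. DESeq2 called Saa1, Saa2, Lcn2, Hp and Lbp, and 47 genes in all. Without 12 h replicate 2 the log2 fold was 2.89 for Saa1, 2.67 for Saa2, 2.24 for Lcn2 and 0.85 for Lbp. Among the libraries at or below 100 CPM of Malat1 alone, the log2 fold was 5.31 for Saa1, 6.08 for Saa2 and 4.34 for Lcn2. Above 100 CPM the 12 h group held 1 library, so no value was fitted there.

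At 36 h Saa1 had 42.5, 56.9, 78.9 and 39.6 CPM in hepatocytes, above every WT library (1.65 ± 0.98, adjusted p = 1). Hp had 4513, 4538, 3306 and 3976 CPM at 36 h (0.79 ± 0.28, adjusted p = 0.756). Orm2 had 36.9, 39.6, 44.2 and 37.8 CPM (1.31 ± 0.62, adjusted p = 0.997). Both lay above every WT library, as did Saa3 at 5.99 to 12.6 CPM (log2 fold 1.51) and Lcn2 at 13.2 to 20.9 CPM (1.004). Such separation was not counted over all genes. Lbp had 119, 109, 107 and 114 CPM at 36 h, with all 4 libraries inside the WT range (0.03 ± 0.31, adjusted p = 1). EdgeR called none of the 10 against WT and 0% of all genes. At an unadjusted p under 0.05 there were 1 of the 10 and 563 of 11326 genes in all. DESeq2 called 0 of the 10 and 59 genes in all. Against 12 h, edgeR called 0 of the 10 (0% of all genes). There 5 of the 10 had an unadjusted p under 0.05, against 725 of 11326 genes in all. DESeq2 called Saa2 and Lbp lower, and 24 genes in all.

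Whether the response differed between cell types was tested as an interaction over all 36 libraries. At 12 h the log2 response of Lbp was larger in HSC than in LSEC by 3.27 ± 0.54, adjusted p = 0.000443, the 1 gene of the set called, where 0.822% of all genes were called higher (2.56 without HSC 12 h replicate 3). The response of Saa3 was larger in HSC than in hepatocytes by 7.81 ± 1.64, adjusted p = 0.00331, again 1 of 10, where 5.03% of all genes were (5.70 without HSC 12 h replicate 3). Lbp responded less in LSEC than in hepatocytes, with a difference of -1.82 ± 0.47, adjusted p = 0.0267, where 1.60% of all genes were called lower. That call was lost without LSEC WT replicate 1, LSEC 12 h replicate 3, hepatocyte WT replicate 1 or 2, or hepatocyte 12 h replicate 2 (adjusted p 0.056 to 0.0825).

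The other differences at 12 h did not pass, which does not show that the cell types responded alike. For Lcn2 the difference between HSC and LSEC was 3.38 ± 3.05, adjusted p = 0.771, and that between HSC and hepatocytes was 4.84 ± 1.74, adjusted p = 0.0745 (adjusted p = 0.00633 without hepatocyte 12 h replicate 2). At 36 h edgeR called none of the 10 in any of the 3 differences, where 0%, 0.00709% and 0.00709% of all genes were called. At an unadjusted p under 0.05 there were 0 of the 10 in HSC against LSEC, 5 in HSC against hepatocytes and 7 in LSEC against hepatocytes. Over all 14104 genes there were 567, 937 and 973. DESeq2 called 0, 2 and 2 of the 10, and 13, 62 and 87 genes in all.

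The make-up of the serum amyloid A counts was not the same in the 3 cell types. In HSC Saa3 made up 73.9% of the counts of the 4 Saa genes at 12 h and 59.98% at 36 h, pooled over 4 libraries. In LSEC Saa3 made up 6.62% at 12 h and 7.06% at 36 h, and Saa1 and Saa2 together held most of the pooled counts; in single libraries at 12 h Saa4 ran from 1.33 to 51.9%, highest in replicates 1 and 2. In hepatocytes Saa3 made up 1.202% at 12 h, and Saa4 made up 83.6% in WT, 29.1% at 12 h and 65.2% at 36 h. The pooled share of Saa4 at 12 h was set by replicates 1 and 2, where it was 33.9 and 22.3%, against 79.5 and 84.6% in replicates 3 and 4. The Saa3 share of single HSC libraries at 12 h ran from 51.7 to 90.1%, above every LSEC and hepatocyte library of that time.

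**Figure D4:**
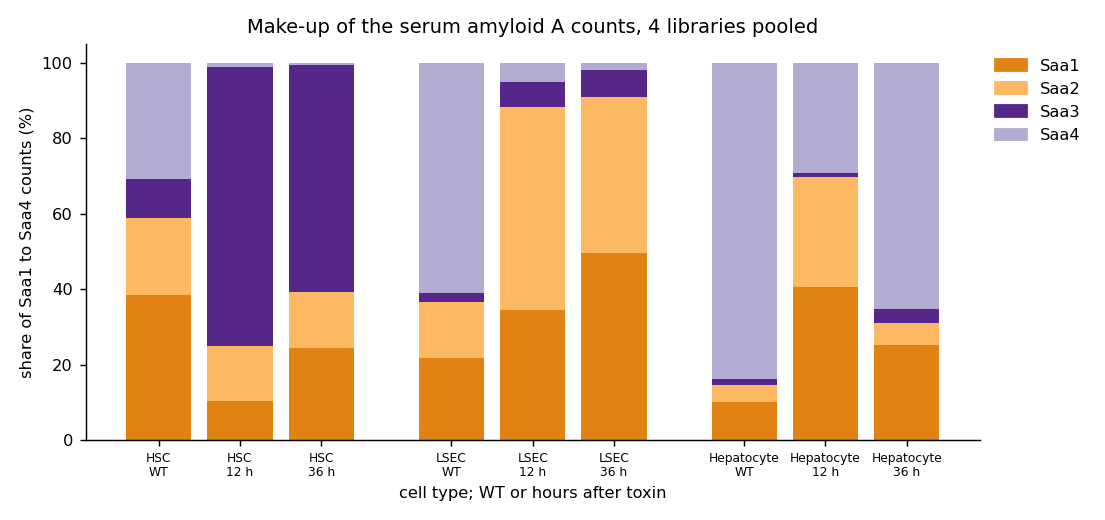
Share of each Saa gene in the summed Saa1 to Saa4 counts (y axis, %), 4 libraries pooled, in WT and at 12 h and 36 h after toxin for each cell type. Saa3 fills 73.9% of the HSC bar at 12 h and 1.202% of the hepatocyte bar at 12 h; the WT bars of HSC and LSEC rest on 153 and 41 counts.

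Albumin (Alb), the chief hepatocyte transcript, was counted in every HSC and LSEC library, and each gene was therefore also set against Alb. In WT the libraries held a median of 7.63 Hp counts per 100 Alb counts in HSC, 8.14 in LSEC and 7.56 in hepatocytes. At 12 h the medians were 56.2 in HSC, 58.9 in LSEC and 16.3 in hepatocytes. The medians were thus close in WT, while at 12 h each group was divided. Replicates 3 and 4 had 92.8 and 91.8 in HSC and 94.9 and 93.03 in LSEC, above every hepatocyte library. Replicates 1 and 2 had 17.6 and 20.6 in HSC and 18.8 and 24.7 in LSEC, inside the hepatocyte range of 8.599 to 27.3. At 36 h the ranges were 37.2 to 79.4 in HSC and 35.03 to 75.3 in LSEC, above the hepatocyte range of 9.14 to 13.5. Alb itself ran from 92.3 to 165 CPM in HSC at 36 h, against 151 to 243 CPM in WT. In LSEC it ran from 29.3 to 212 CPM at 36 h, against 21.8 to 111 CPM in WT. The hepatocyte markers summed to 339 to 594 CPM in HSC at 12 h, against 367 to 555 CPM in WT, and to 108 to 264 CPM in LSEC at 12 h, against 71.8 to 273 CPM in WT, with none of the 20 at 0. Of the 19 tested in HSC at 12 h, edgeR called 0 and DESeq2 called 2 lower. An unadjusted p under 0.05 was found for 2 of the 19, against 5399 of 12676 genes in all.

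Same-numbered HSC and LSEC libraries gave similar values per Alb count for much of the set. Over the 8 toxin pairs the HSC value over the LSEC value had a median of 0.956 for Hp (0.642 to 1.44), 1.15 for Hpx (0.889 to 1.29), 0.885 for Orm1 (0.664 to 1.31), 0.8497 for Saa1 (0.522 to 1.34), 0.6796 for Saa2 (0.535 to 1.21), 0.9000 for Orm2 (0.197 to 1.57) and 0.521 for Saa4 (0.428 to 2.41), with the range in parentheses. Orm2 and Saa4 had the widest ranges of these 7 genes. For Saa1 at 12 h, replicates 3 and 4 had 24.3 and 23.1 counts per 100 Alb counts in HSC, and 21.5 and 21.8 in LSEC. Replicates 1 and 2 had 0.215 and 0.6403 in HSC, and 0.298 and 1.23 in LSEC, so that the division within the 12 h group was shared by both cell types. The ratio was farther from 1 for the other 3 genes, with a median of 19.4 for Saa3 (6.17 to 64.4 over the 7 pairs with an LSEC count), 6.37 for Lcn2 (2.63 to 135) and 0.0101 for Lbp (0.00185 to 0.0479). For Lbp, WT libraries held 0.289 to 0.382 counts per 100 Alb counts in HSC, 0.279 to 0.387 in hepatocytes and 80.1 to 428 in LSEC. At 12 h these ranges were 0.84 to 4.5, 0.479 to 1.52 and 93.97 to 225. At 36 h they were 0.656 to 1.08, 0.262 to 0.344 and 52.4 to 354. The part of hepatocyte RNA in the HSC and LSEC levels was not tested.

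**Figure D5:**
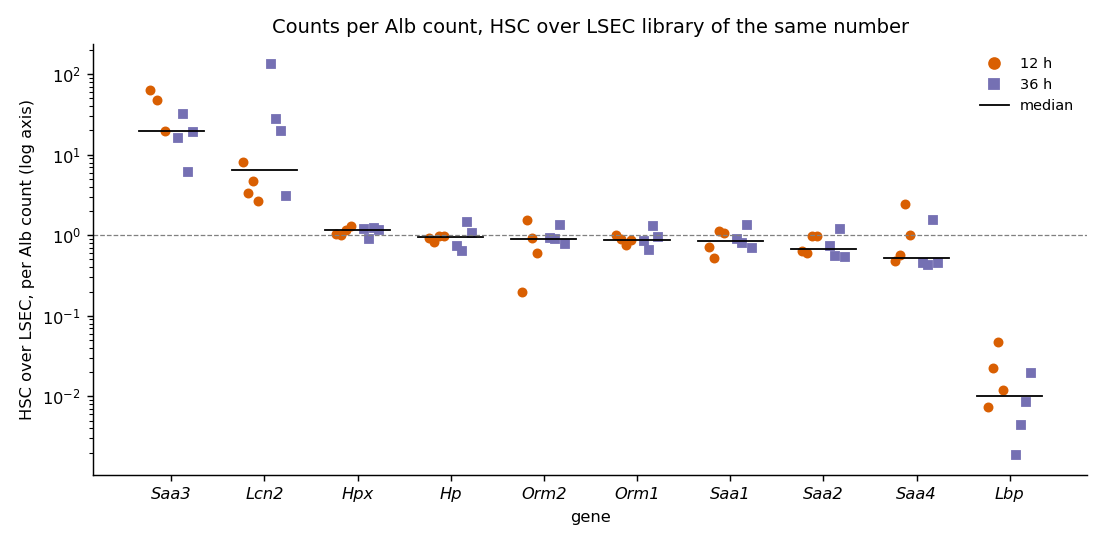
Counts of each gene per Alb count in an HSC library over the same in the LSEC library of the same number (log axis), for 8 pairs at 12 h and 36 h after toxin, with a bar at the median and a dashed line at 1. The medians of Hp (0.956) and Hpx (1.15) lie near the line, all pairs of Saa3 and Lcn2 above it and all pairs of Lbp below it.

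Neutrophils and monocytes can carry Lcn2. The 14 such genes in the files summed to 1.86 to 3.58 CPM in HSC at 12 h, against 3.28 to 7.33 CPM in WT. S100a8, Ngp, Retnlg and Mpo were at 0 in both groups, and S100a9, Camp, Elane and Ccr2 in WT only. In LSEC the 14 genes summed to 8.82 to 27.3 CPM at 12 h, against 6.88 to 14.5 CPM in WT. Mpo and Elane were at 0 in both groups, and Camp and Ngp in WT only. In 3 of the 4 LSEC libraries at 12 h this sum was above the level of Lcn2 itself. Of 8 of these genes tested in LSEC at 12 h, edgeR called 0 and DESeq2 called 2 higher. An unadjusted p under 0.05 was found for 2 of the 8, against 4021 of 12286 genes in all. The part of such cells in the HSC and LSEC values was not tested. Of the Kupffer cell markers, 5 of 6 tested fell in HSC and 5 of 9 fell in LSEC at 12 h. In either direction edgeR called 4060 of 12676 genes in HSC and 2241 of 12286 in LSEC. The 11 markers summed to 136 to 480 CPM in HSC at 12 h, against 558 to 865 CPM in WT, and to 550 to 759 CPM at 36 h. In LSEC they summed to 730 to 1103 CPM at 12 h, against 756 to 980 CPM in WT. In hepatocytes at 12 h, 9 of the 11 markers were at 0 and the sum was still 160 to 244 CPM. The sums therefore need not follow Kupffer cell RNA. Clec4f, Timd4 and Cd163 were at 0 in HSC at 12 h.

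Other genes of the pathway were read against the 17.0% of all genes called higher in HSC at 12 h. Of 33 other positive acute-phase genes tested, 15 rose and 1 fell. Mt2, a metal-binding metallothionein, averaged 221 ± 49.4 CPM at 12 h and 9.67 ± 2.74 CPM in WT (SD, n = 4 each; log2 fold 4.48, edgeR adjusted p = 8.83e-07). Mt1 (3.22), the serpin Serpina3g (3.17) and the metalloreductase Steap4 (1.47) rose as well. Of 26 upstream signalling genes, 16 rose and 1 fell. Those that rose included Nfkb2 (2.23) and Relb (1.59), subunits of NF-kB, Osmr (1.80), the oncostatin M receptor, and Lif (5.33), a cytokine of the interleukin-6 family.

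Of 14 receptors and partners of the set in HSC at 12 h, 4 rose and 1 fell, against 17.0% of all genes called higher. Heme oxygenase Hmox1 (1.52), the pattern receptor Tlr2 (2.64) and Ly96 (0.60), the co-receptor of TLR4, rose, and the lipocalin-2 receptor Slc22a17 (-1.13) fell. EdgeR called 0 of 13 negative acute-phase genes and DESeq2 called 1 lower. An unadjusted p under 0.05 was found for 1 of the 13, against 5399 of 12676 genes in all. At 36 h 3 of the 33 positive acute-phase genes rose, where 0.134% of all genes were called higher. They were the complement genes Cfb (1.76) and C3 (1.13) and ceruloplasmin, Cp (1.48). The 26 upstream genes had 0 calls at 36 h, 7 at an unadjusted p under 0.05 (868 of 12676 genes in all) and 3 called higher by DESeq2.

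In LSEC at 12 h, where 9.74% of all genes were called higher, 7 of 32 other positive acute-phase genes rose and 1 fell. Cd14, the receptor that Lbp serves, averaged 27.9 ± 13.2 CPM at 12 h and 6.01 ± 1.59 CPM in WT (SD, n = 4 each; log2 fold 2.23, edgeR adjusted p = 0.000814). Serpina3n, an acute-phase serpin, averaged 17.6 ± 17.2 CPM at 12 h and 0.504 ± 0.2300 CPM in WT (5.13, edgeR adjusted p = 0.00209). Of 27 upstream genes, 4 rose, not far from the share of all genes, among them Tnf (3.62), Il1a (1.20) and Nfkb2 (0.89), and Osmr fell (-0.59); the 12 h response of Osmr was larger in HSC than in LSEC by 2.39 (edgeR adjusted p = 0.000308). For the positive acute-phase genes edgeR made 0 calls in LSEC at 36 h and in hepatocytes at 12 h and 36 h. At an unadjusted p under 0.05 there were 13 of 32, 1 of 33 and 4 of 33, and DESeq2 called 3, 0 and 0. Over all genes 1288 of 12286, 453 of 11326 and 563 of 11326 had such a p.

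The genes most like a member over the 12 libraries of a cell type were ranked by Pearson correlation of log2 CPM, leaving out the members themselves. Symbols made of Gm and a number, and those ending in Rik, -ps or -rs, were left out as well. For Saa3 in HSC these were Cfb (0.98), C3 (0.94), Bap1 (0.94) and Uba7 (0.93). For Lcn2 in HSC they were Cfb (0.97), C3 (0.96), Uba7 (0.92) and Zbp1 (0.92), and Saa3 and Lcn2 had 0.98 between them. Cfb, a complement factor, had 462 to 600.0 CPM in WT HSC, 1294 to 2522 CPM at 12 h and 1610.3 to 1939 CPM at 36 h, so that both toxin groups lay above WT. Among the ranked genes outside the set, Serpina3n came first in LSEC for Lcn2 (0.94) and Psmb10, an immunoproteasome subunit, for Saa3 (0.91). Likewise in hepatocytes Lrg1 came first for Lcn2 (0.93) and Mvp for Lbp (0.92). These values describe 12 libraries that share their groups, and no test was made on them.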

How the data were processed

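The authors deposited 1 table per library of raw counts per gene symbol, 24421 symbols and 5 summary lines, which were left out of totals and tests (4.90 to 9.02% of reads had no feature). Per the submitters' processing notes, FastQC 0.11.4, Trimmomatic 0.35, TopHat2 2.1.0, SAMtools 0.1.18 and build mm10 were used; for the counting tool, annotation and strand setting the sources used here give nothing. CPM was computed from these counts. Tests used edgeR 4.0.16 in R 4.3.3 (TMM scaling, filterByExpr with a minimum count of 10 and total of 15, quasi-likelihood test, Benjamini-Hochberg adjustment over all genes; each SE is the log2 change over the square root of its F statistic), with 1 fit per cell type over its 3 conditions, 1 over the WT libraries and 1 over all 36 libraries for differences in response. Genes were named as members of the set, and list genes as those with the smallest adjusted p among called genes; genes most like a member needed a mean of at least 5 CPM. The members and lists were chosen with earlier results of these data known. The procedure was tested on simulated counts. Alternatives were DESeq2 1.42.0, other scalings, no filter, fits of the compared groups alone, a block for replicate number, a Malat1 term in hepatocytes and leaving out each library. No 2 libraries of a group were identical (54 pairs). Same-numbered HSC and LSEC libraries of each condition deviated from their group means together (correlation over genes 0.11 to 0.54 within a condition), as did hepatocyte WT and 36 h libraries (0.40 to 0.56); of the other pairs of groups only HSC at 36 h with LSEC WT, which are not compared, had all 4 correlations over 0.1. Sequences are from RefSeq (GRCm38.p6).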

Additional observations from a re-analysis of the deposited data

Results flagged for a closer look

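In 13 of 90 groups of 4 libraries 1 library lay apart from the other 3 by a gap above Dixon's 95% critical value. The rate of 1 in 20 for that value is for independent, normally distributed values. The 90 groups share 36 libraries and their CPM are skewed, some near 0, so 13 of 90 cannot be read against that rate. Hepatocyte 12 h replicate 2 was the highest for Saa2 (1176 CPM), Lcn2 (515 CPM), Orm2 (192 CPM) and Lbp (552 CPM). HSC 12 h replicate 3 was the highest for Saa3 (557 CPM), and HSC 36 h replicate 3 for Saa1 (34.1 CPM). LSEC 36 h replicate 4 was the highest for Lcn2 (8.78 CPM). Among WT libraries, HSC replicate 2 was the highest for Saa1 (1.76 CPM) and Saa2 (0.848 CPM), HSC replicate 4 for Lcn2 (0.284 CPM), LSEC replicate 2 for Saa3 (0.0364 CPM, 1 count), LSEC replicate 3 for Saa2 (0.0997 CPM, 3 counts) and hepatocyte replicate 4 for Lcn2 (10.01 CPM).

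The response at 12 h differed between cell types by the interaction test in 3 cases: Lbp in HSC against LSEC (log2 difference 3.27), Saa3 in HSC against hepatocytes (7.81) and Lbp in LSEC against hepatocytes (-1.82).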

How the results depend on the processing

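Over all genes of the set, comparisons and alternatives, the direction and the call were kept in 1522 cases, the call was lost in 53 and gained in 71, and the direction turned in 15.

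Counts of called genes that moved by over 1.5 times are given first for the set and then for all genes. With DESeq2, the set had 4 genes higher in HSC at 36 h against WT (2 in edgeR) and 124 of all genes were called (18). In LSEC at 36 h against WT it had 8 higher (0) and 109 called (0), and at 36 h against 12 h 1 higher (0). In hepatocytes it had 5 higher at 12 h (0) with 47 called (0), 59 called at 36 h (0), and 2 lower at 36 h against 12 h (0) with 24 called (0). In WT HSC against LSEC 8 were higher (5). For responses at 12 h DESeq2 called 466 genes in HSC against LSEC (229), 3 of the set higher in HSC against hepatocytes (1) and 1008 genes in LSEC against hepatocytes (503). At 36 h it called 13 genes in HSC against LSEC (0), 2 of the set (0) and 62 genes (1) in HSC against hepatocytes, and 2 of the set (0) and 87 genes (1) in LSEC against hepatocytes.

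With only the groups compared in the fit, the set had 7 higher in HSC at 36 h (45 genes in all), 4 in LSEC at 12 h, 2 in LSEC at 36 h (2 in all) and 3 in WT HSC against LSEC. These fits left members untested at the filter on low counts: Orm2 in HSC at 12 h, Saa1, Saa2, Saa3 and Orm2 in LSEC at 12 h, Saa4 and Lcn2 in LSEC at 36 h, and Lcn2, Orm2 and all 4 Saa genes in WT HSC against LSEC. In LSEC at 12 h the lower count reflects those untested genes, and Saa4 gained a call. The 12 h response in HSC against LSEC then gave 379 genes, and the 36 h responses gave 1 gene in HSC against LSEC, 3 of the set and 6 genes in HSC against hepatocytes, and 2 of the set and 4 genes in LSEC against hepatocytes.

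With replicate number as a block, the set had 3 higher in LSEC at 36 h against WT and 2 at 36 h against 12 h. In LSEC at 12 h Saa4 (adjusted p = 0.0394) and Orm1 (adjusted p = 0.0423) then passed. The block gave 10 genes in all in HSC at 36 h, 5 in LSEC at 36 h, 1, 5 and 3 in hepatocytes at 12 h, at 36 h and at 36 h against 12 h, and for the 36 h responses 1 in HSC against LSEC and 3 in LSEC against hepatocytes. Beside Saa2 in WT HSC against LSEC it changed no call of the set in comparisons whose same-numbered libraries deviated together. The labels do not say that these are pairs.

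RLE scaling and the fit without a filter on low counts each called 0 genes for the 36 h response in HSC against hepatocytes. A Malat1 term gave 2 genes in hepatocytes at 12 h and 10 at 36 h. Chosen after seeing the data, the hepatocyte libraries at or below 100 CPM of Malat1 gave 6 genes at 12 h and 10 at 36 h, and for the 12 h response in HSC against LSEC a term shared by same-numbered libraries gave 797 genes and leaving out hepatocyte libraries gave 467. None of these settings changed the calls of the set in those comparisons.

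Leaving out 1 library at a time, the set had 0 to 2 higher in HSC at 36 h (2 to 33 genes in all), 0 to 1 higher and 1 to 3 lower in HSC at 36 h against 12 h, 3 to 7 higher in LSEC at 12 h, 0 to 1 higher and 0 to 1 lower in LSEC at 36 h against 12 h, and 4 to 8 higher in WT HSC against LSEC. LSEC at 36 h against WT had 0 to 1 genes in all. The 12 h responses gave 1 to 3 of the set higher and 688 to 1483 genes in HSC against hepatocytes, and 0 to 1 lower and 243 to 581 genes in LSEC against hepatocytes. The 36 h responses gave 0 to 31 genes in HSC against LSEC, 0 to 5 in HSC against hepatocytes and 0 to 9 in LSEC against hepatocytes.

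The log2 folds that turned direction under some setting were all uncalled. Leaving out 1 library at a time, Saa4 in HSC at 36 h ran from -0.0084 (without 36 h replicate 3) to 0.854, and Lbp in LSEC at 36 h from -0.0664 (without 36 h replicate 3; -0.0225 and -0.0648 without WT replicate 2 and 3) to 0.11, with -0.00185 without the filter. In hepatocytes at 12 h, Hpx ran from -0.0772 to 0.411 and Orm1 from -0.0751 to 0.219, both lowest without 12 h replicate 2. In hepatocytes at 36 h, Saa4 ran from -0.163 to 0.0428 (0.00745 and 0.0409 without WT replicate 1 and 2), Orm1 from -0.0406 to 0.311 and Lbp from -0.0481 to 0.149, and on the low Malat1 side Saa4 was 0.0685 and Lbp -0.0710. Lcn2 in WT HSC against LSEC ran from -0.289 (without HSC replicate 4) to 0.743. The cause was not tested for any of these. Counts near 0 in WT HSC and LSEC limit the folds of Saa1, Saa2, Saa3, Orm2 and Lcn2.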
